A study of Mus musculus with 9 samples.

Results

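The cytosolic ribosomal proteins are the 83 genes of a 56860-row count table whose symbols follow the naming of the large subunit (Rpl) and small subunit (Rps) proteins, together with Rplp0, Rplp1, Rplp2 and Rpsa. The rule reads symbols alone and no measured value, though the members were chosen with earlier results of these data known. It gave 51 genes of the large subunit and 32 of the small subunit, of which 80 (48 and 32) had enough counts to be tested among 19348 genes. Rpl10l had 0 counts in all 9 libraries, which allows 3 fragments in each, or 6 counts where both mates of a pair were counted. Rpl39l had at most 2 counts and Rpl32l at most 8 in any library, and neither was tested. A further 2 members were tested at a mean under 2 CPM, a count scaled by library size, namely Rpl3l and Rps4l, which left 78 members at 2 CPM or more.

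The libraries are stranded mRNA libraries of mouse spleen cells that the labels call CD4+ T cells, in 3 groups of 3. The groups are control mice, CIA mice, and CIA mice treated with luteolin, a plant flavone. CIA is the usual abbreviation of collagen-induced arthritis, a mouse model of rheumatoid arthritis, and the series title names RA. The labels give no strain, age, sex, dose, route or time, do not say what the control or the CIA mice received, and do not say whether a replicate is 1 animal, a pool or a repeat library. The p-values below therefore speak only of variation among these 9 libraries, part of which may be technical.

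Each cytosolic ribosome carries a single copy of nearly all of these proteins, and cells keep their supply balanced, because unassembled copies are degraded. Their mRNAs are among the most abundant of a lymphocyte and share a start made of pyrimidines, the 5′ terminal oligopyrimidine tract, through which the kinase mTOR and the RNA-binding protein Larp1 set their translation and stability together. Resting T cells hold few ribosomes, and activation through the antigen receptor is known to raise ribosome production before division.

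The starts of a few members are shown because this shared feature is what the family is known for and because these genes carry the contrasts described below. Sequences are RefSeq promoters on GRCm38.p6, 30 bases each, from 10 before the annotated start, 5′ to 3′ on the gene's strand. Capitals mark the oligopyrimidine tract, defined as a C followed by at least 4 pyrimidines whose C lies within 5 bases of the annotated start.
Rpl27a: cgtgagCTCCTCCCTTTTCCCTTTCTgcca
Rplp2: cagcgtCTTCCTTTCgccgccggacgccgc
Rps6: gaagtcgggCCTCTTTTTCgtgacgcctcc
Rps27: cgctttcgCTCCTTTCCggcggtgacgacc
Rps27l: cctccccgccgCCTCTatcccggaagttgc
Rpl41: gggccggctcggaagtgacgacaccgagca
Rpsa: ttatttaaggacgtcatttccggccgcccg
Rpl3l: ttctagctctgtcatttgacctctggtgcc
These windows lie at chr7:109519185-109519214, plus strand (Rpl27a), chr7:141447641-141447670, plus strand (Rplp2), chr4:86857348-86857377, minus strand (Rps6), chr3:90213629-90213658, minus strand (Rps27), chr9:66946076-66946105, plus strand (Rps27l), chr10:128549149-128549178, minus strand (Rpl41), chr9:120127756-120127785, plus strand (Rpsa) and chr17:24727816-24727845, plus strand (Rpl3l). Rpl27a had the longest of these tracts, 20 bases, against 10 in Rps6, 9 in Rps27 and in Rplp2, and 5 in Rps27l. Rpl41, Rpsa and Rpl3l held no tract in the window. Rps27l and Rpl3l each have another start in the table, at chr9:66946403-66946432 and chr17:24732675-24732704, and neither of those windows held a tract. Where no tract was found, only these letters at the annotated start are described, since transcripts may begin some bases away.

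The promoter table held 61 of the 83 members. An oligopyrimidine start was found in 29 of the 61 (47.5%), against 21.2% of all 27025 genes in the table. CCGGAAG, the core recognised by ETS factors, was found on either strand between 250 bases before and 50 after the start in 25 of 61 members (41.0%) and in 9.93% of all genes. CACGTG, the E-box that MYC can bind, was in 9.84% of members and 8.09% of all genes, searched in the same way, and ATGGCGGC, a core of YY1 sites, in 6.56% and 2.61%. TATAAA on the gene's strand from 40 to 15 bases before the start was found in 0 of 61 members and in 2.41% of all genes. A match describes these letters and is not a bound site. The genes of the family lie on 19 chromosomes.

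Libraries held 31234177 to 40553934 counts in control, 31851523 to 35670309 in CIA and 33436951 to 41815573 with luteolin. The labelled cell type was checked against marker genes. Cd4 was at 3.65, 2.46 and 2.66 CPM in control, 82.1, 151 and 150.3 in CIA and 106, 106 and 98.5 with luteolin, so the control libraries hold little of the transcript that names the cells, and every comparison with control rests on them. The 10 neutrophil markers summed to 2049 to 2418 CPM in control, 6712 to 11347 in CIA and 8220 to 8707 with luteolin, and the 10 T cell markers to 207 to 232, 395 to 673 and 421 to 454 CPM. B cell markers (8) summed to 2255 to 2319, 300.4 to 1668 and 469 to 577 CPM, macrophage markers (10) to 270.1 to 366, 168 to 218 and 653 to 763, and markers of dividing cells (8) to 1096 to 1121, 324 to 432 and 2002 to 2049. Mast cell and basophil markers (8) summed to 12.9 to 13.9, 46.9 to 82.0 and 220.4 to 252 CPM, and megakaryocyte and platelet markers (6) to 4.97 to 6.95, 19.9 to 44.2 and 85.8 to 90.9. Plasma cell markers (6) summed to 272 to 285, 420 to 484 and 503 to 556 CPM. None of these markers was at 0 in a whole group, though 5 macrophage markers (Marco, Siglec1, Vcam1, Mertk and C1qa) and 1 of platelets (Gp9) stayed under 1 CPM in all CIA libraries. In all control libraries Ly6g, 5 mast cell and basophil markers and 4 megakaryocyte and platelet markers did, and with luteolin Gp9 did. Of 9 erythroid genes, 7 in control, 7 in CIA and 9 with luteolin stayed under 1 CPM in every library of the group. In such bulk RNA, fewer cells of a type and less RNA per cell cannot be told apart.

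Ribosomal protein genes took 3.46%, 3.37% and 3.32% of all counts in the 3 control libraries, 2.48%, 2.06% and 1.70% in CIA replicates 1, 2 and 3, and 2.18%, 2.29% and 2.15% with luteolin. All control libraries were above all others, and the luteolin libraries fell inside the range of the CIA libraries. The large subunit genes took 2.46% ± 0.0322 of counts in control, 1.54% ± 0.290 in CIA and 1.63% ± 0.0523 with luteolin (SD, n = 3), and the small subunit genes 0.920% ± 0.0364, 0.536% ± 0.0957 and 0.577% ± 0.0222. Counts on large subunit genes were 2.61 to 2.76 times those on small subunit genes in control, 2.84 to 2.90 times in CIA and 2.81 to 2.85 times with luteolin, so both groups of CIA mice lay above the control range. These shares sum over members and are given as a description, without a test.

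**Figure D1:**
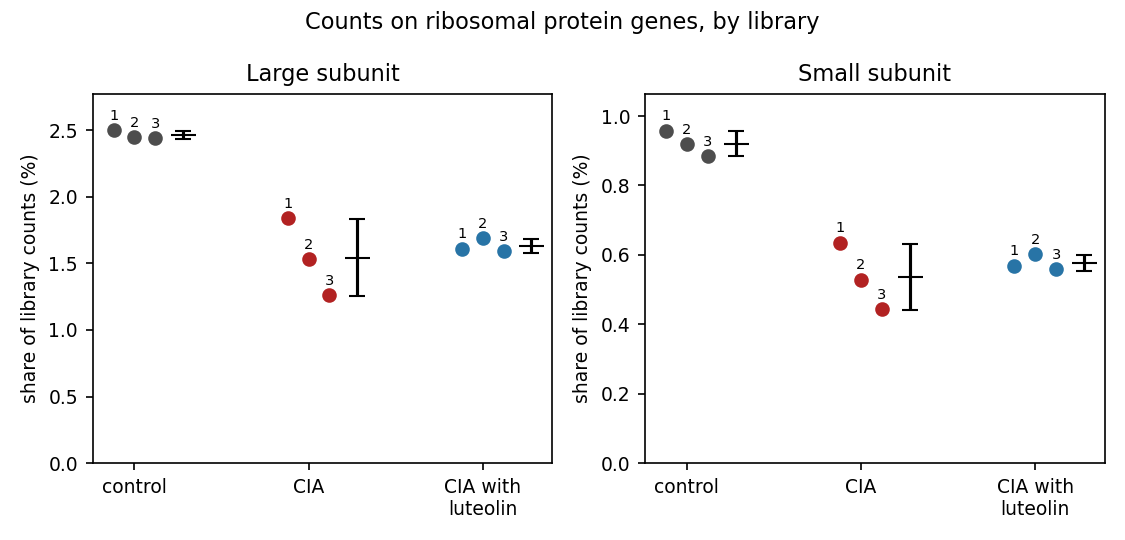
Share of each library's counts (%) on the 51 large subunit genes (left) and the 32 small subunit genes (right). Each point is 1 library, numbered by replicate, and the bar beside each group is the mean with 1 SD. Control libraries lie highest in both panels, and the 3 CIA libraries are spread most widely, from 1.84% to 1.26% for the large subunit, around the luteolin libraries.

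A few members held much of these counts. Rpl5, which carries the 5S rRNA into the large subunit together with Rpl11, held 10.2% of all member counts, and the 10 highest members, 8 of them of the large subunit, held 45.2%. Levels between genes are comparable only per length. On CPM per kilobase of exon, averaged over the 9 libraries, Rpl19 was highest at 1180 and, among members of at least 2 CPM, Rpl6l was lowest at 9.95, a 119-fold range. The median was 126 CPM per kilobase for tested large subunit genes and 57.0 for small subunit genes. Rpl6l is by its name a paralog of Rpl6 (534 CPM per kilobase), so its protein need not be required in equal number. Rps29, not named as a paralog, was at 10.5 CPM per kilobase, against 1180 for Rpl19. The length used here takes in all annotated exon bases of a gene, such as 6270 for Rps15a, and transcripts may be shorter. The part of annotated length in this range and in the subunit medians was not tested. Reads shared with near-identical copies may add to the range.

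CIA against control asks what differs in the disease group. In it, 76 of the 80 tested ribosomal protein genes fell: 46 of 48 in the large subunit and 30 of 32 in the small subunit, where 24.5% of all tested genes fell. Rpl3l alone rose, where 26.6% of all tested genes rose, and Rpl37, Rps27l and Rps4l did not pass the test. The median log2 fold change was -0.67 for the large subunit and -0.73 for the small subunit, or 37.4% and 39.8% lower, against -0.01 over all tested genes. Of the members that fell, 57 were lower by at least 1.5-fold and 4 by at least 2-fold. The shares of all tested genes past these limits were not counted. The 3 CIA libraries all lay below the 3 control libraries for 77 of 80 members, against 29.1% of all tested genes. Calls are from edgeR's quasi-likelihood test at a Benjamini-Hochberg adjusted p below 0.05.

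Rpsa, a small subunit protein also known as the laminin receptor precursor, whose mutation causes congenital asplenia, had the largest fall in the small subunit. It lies on chromosome 9, 119956755 to 119961435, plus strand (mm39, as are all positions from the count table). Its levels were 954, 919 and 906 CPM in control, 536, 432 and 344 in CIA and 585, 626 and 581 with luteolin (CIA against control: log2 fold change -1.08 ± 0.13, adjusted p = 0.000113). The 3 groups did not overlap, with control highest and CIA lowest.

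Rps20, Rps23 and Rps2 had the next largest falls of the subunit. Rps2, which with Rps3 lines the channel through which mRNA enters, was at 405, 341 and 313 CPM in control, 217, 168 and 156 in CIA and 208, 166 and 146 with luteolin (log2 fold change -0.97 ± 0.16, adjusted p = 0.00066), with every CIA library below every control library. Rps23, which reaches the decoding centre, was at 789, 725 and 634 CPM in control and 424, 373 and 294 in CIA (log2 fold change -0.98 ± 0.13, adjusted p = 0.000171). Rps20, which is marked with ubiquitin on stalled ribosomes, fell from 189, 175 and 165 to 104, 79.9 and 74.2 CPM (log2 fold change -1.03 ± 0.12, adjusted p = 0.000108).

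Rps3 fell by less, from 538, 485 and 443 to 349, 302 and 287 CPM (log2 fold change -0.64 ± 0.09, adjusted p = 0.000316). In each of these genes the lowest CIA library was replicate 3.

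Among the small subunit genes with other known roles, Rps6, the substrate for which S6 kinase is named, was at 1148, 1092 and 1057 CPM in control, 743, 620.2 and 546 in CIA and 739, 775 and 739 with luteolin (log2 fold change -0.79 ± 0.10, adjusted p = 0.000157). All CIA libraries lay below all control libraries, and the luteolin libraries overlapped CIA replicate 1, the highest of CIA. Rps19, the gene most often mutated in Diamond-Blackfan anemia, had one of the smaller falls, from 193, 189.5 and 195 to 165, 136 and 145 CPM (log2 fold change -0.37 ± 0.08, adjusted p = 0.0035). The X-linked Rps4x (-0.90 ± 0.15), Rps15a (-0.66 ± 0.10), Rps26, which lies where mRNA leaves the subunit (-0.60 ± 0.15), the zinc-binding Rps29 (-0.81 ± 0.15) and Rps27a, made as a fusion with ubiquitin (-0.86 ± 0.13), also fell on the log2 scale. Rps10 had the smallest called fall of the subunit (log2 fold change -0.26 ± 0.09, adjusted p = 0.0299). Other genes cover 28.7% of its exonic sequence, and the gene model Gm49804 that overlaps it held 173% of its counts, so its reads are uncertain.

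In the large subunit, the falls were largest for Rpl39, a small protein that lines the exit tunnel for the growing chain, and for Rpl27a, Rpl10a and Rpl36a. Rpl39 was at 85.9, 99.7 and 84.7 CPM in control, 54.9, 46.2 and 32.6 in CIA and 49.8, 58.8 and 47.2 with luteolin (log2 fold change -1.01 ± 0.17, adjusted p = 0.000686). Rpl27a (chromosome 7, 109118354 to 109121574, plus strand) was at 227, 274 and 242 CPM in control, 163, 118 and 90.3 in CIA and 188, 178 and 155 with luteolin (log2 fold change -1.001 ± 0.18, adjusted p = 0.0011). In both, all CIA libraries lay below all control libraries and CIA replicate 3 was lowest. Rpl10a, which forms the stalk that moves spent tRNA out, fell from 76.2, 75.3 and 76.4 to 50.8, 35.98 and 28.2 CPM (log2 fold change -0.99 ± 0.17, adjusted p = 0.000782), and Rpl36a, which sits at the exit site for tRNA, from 315, 292 and 248 to 189.5, 148 and 116 CPM (log2 fold change -0.92 ± 0.16, adjusted p = 0.000792).

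The 3 proteins of the acidic stalk, which recruits the GTPases of translation, fell together. Rplp1 was at 234, 222 and 228 CPM in control, 138, 120.3 and 111 in CIA and 165, 164 and 169 with luteolin (log2 fold change -0.89 ± 0.09, adjusted p = 2.91e-05). Its 3 groups were apart, with CIA lowest. Its partner Rplp2 was at 769.96, 641 and 569 CPM in control, 400.5, 356 and 335 in CIA and 397, 392 and 382 with luteolin (log2 fold change -0.86 ± 0.11, adjusted p = 0.000149), and the stalk base Rplp0 at 299, 299 and 311 CPM in control, 213, 194 and 182 in CIA and 206, 215 and 204 with luteolin (log2 fold change -0.62 ± 0.07, adjusted p = 0.000108). For Rplp2 and Rplp0 the luteolin libraries stayed near those of CIA.

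The genes of the 5S particle, whose free proteins bind and inhibit the p53 ligase Mdm2, moved by similar amounts. Rpl5 was at 3473, 3392 and 3244 CPM in control, 2659.8, 2162 and 1767 in CIA and 2212, 2303 and 2177 with luteolin (log2 fold change -0.62 ± 0.12, adjusted p = 0.00171), Rpl11 at 192, 175 and 172 CPM in control, 126, 110.4 and 98.9 in CIA and 116, 119 and 115 with luteolin (log2 fold change -0.69 ± 0.09, adjusted p = 0.000228). Rpl23, another Mdm2-binding protein, had a log2 fold change of -0.66 ± 0.10. CIA was below control in every library of the 3 genes. Other genes cover 26.7% of the exonic sequence of Rpl5, and the most counted of them held 0.515% of its counts.

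Rpl22, a protein that T cells need for their development in the thymus, fell from 454, 415 and 410.01 to 277, 228 and 183 CPM (log2 fold change -0.90 ± 0.13, adjusted p = 0.00029). Rpl3, at the peptidyl transferase centre, fell from 1114, 1084 and 1075 to 760.3, 593 and 429.6 CPM (log2 fold change -0.88 ± 0.16, adjusted p = 0.00118). Rpl13a, also known as a translational silencer after interferon gamma (-0.68 ± 0.12), Rpl38, known for the translation of Hox mRNAs (-0.72 ± 0.16), Rpl41, the smallest of the family (-0.79 ± 0.13), Rpl21 (-0.86 ± 0.11) and Rpl10, a late-joining protein near the active site (-0.49 ± 0.10), fell as well on the log2 scale. Other genes cover 35.4% of the exonic sequence of Rpl13a, and the most counted of these held 99.7% as many counts as Rpl13a itself. The smallest falls of the subunit were those of Rpl6 (log2 fold change -0.29 ± 0.08, adjusted p = 0.00921), Rpl18 (-0.31) and Rpl8 (-0.38).

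**Figure D2:**
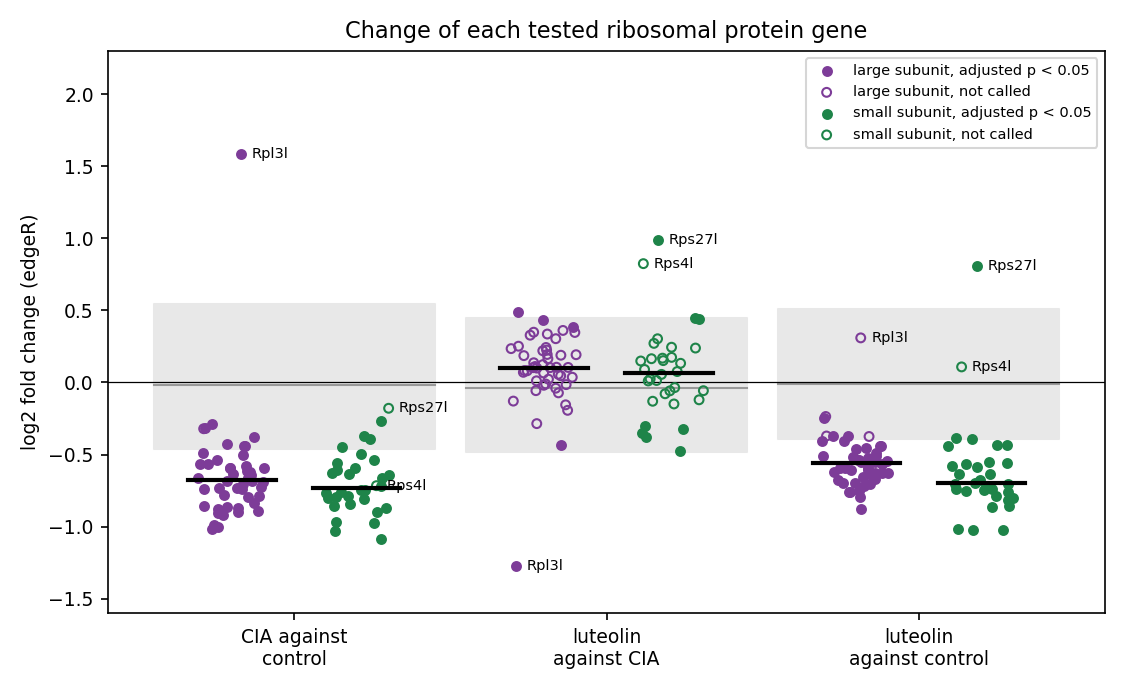
Log2 fold change of each tested ribosomal protein gene in the 3 comparisons, with large subunit genes in purple, small subunit genes in green, filled where the adjusted p was below 0.05 and open where it was not. Black lines are subunit medians, and the grey band and line are the middle 50% and the median of all tested genes. Nearly all points lie below 0 against control in both CIA and luteolin libraries and around 0 between luteolin and CIA, with Rpl3l and Rps27l apart.

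Members that did not follow were few. Rpl37 was at 99.9, 84.7 and 69.8 CPM in control and 64.02, 63.7 and 75.99 in CIA (log2 fold change -0.32 ± 0.12, adjusted p = 0.0521), with overlapping groups, since CIA replicate 3 was above control replicate 3. Without that CIA library its adjusted p was 0.0124 (log2 fold change -0.41), and without control replicate 3 it was 0.0101 (-0.44). Rpl3l, a paralog of Rpl3 known from heart and skeletal muscle, was at 1.08, 0.743 and 0.443 CPM in control, 1.36, 2.37 and 3.18 in CIA and 1.02, 0.755 and 1.07 with luteolin (log2 fold change 1.58 ± 0.38, adjusted p = 0.00537). It stayed at least 100-fold below Rpl3 in every library, on counts not corrected for length, and the stricter count filter left it out.

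The falls differed in size from 1 CIA library to another. CIA replicate 3 was the lowest CIA library in 72 of 80 tested members and the lowest of all 9 libraries in 61, and CIA replicate 1 was the highest CIA library in 75. The median coefficient of variation over members of at least 2 CPM was 15.5% in CIA, 5.54% in control and 3.999% with luteolin. Neither these ranks nor this variation was computed over all tested genes, so neither is read as particular to the family. Over genes in general, CIA replicates 1 and 3 differed most of all pairs within a group (chi-square per degree of freedom of 113.6). Over the same CIA replicates 1, 2 and 3, the summed neutrophil markers were 6712, 10061 and 11347 CPM, the B cell markers 1668, 982 and 300.4, the T cell markers 395, 642 and 673, and the dividing-cell markers 432, 324 and 335. Among the lists, 10 of 10 neutrophil and 9 of 10 T cell markers rose in CIA, where 26.6% of all tested genes rose. So did 8 of 8 of mast cells and basophils and 6 of 6 of megakaryocytes and platelets. In contrast, 2 of 2 CD8 T cell, 6 of 8 B cell, 8 of 10 macrophage and 7 of 8 dividing-cell markers fell, where 24.5% of all tested genes fell. Plasma cell markers went both ways, with 3 of 6 higher and 2 lower. The part of these markers in the ribosomal protein values was not tested. With any 1 of the 9 libraries left out, 75 or 76 of the 80 members still fell in CIA, and the small subunit median ranged from -0.84 (without CIA replicate 1) to -0.65.

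**Figure D3:**
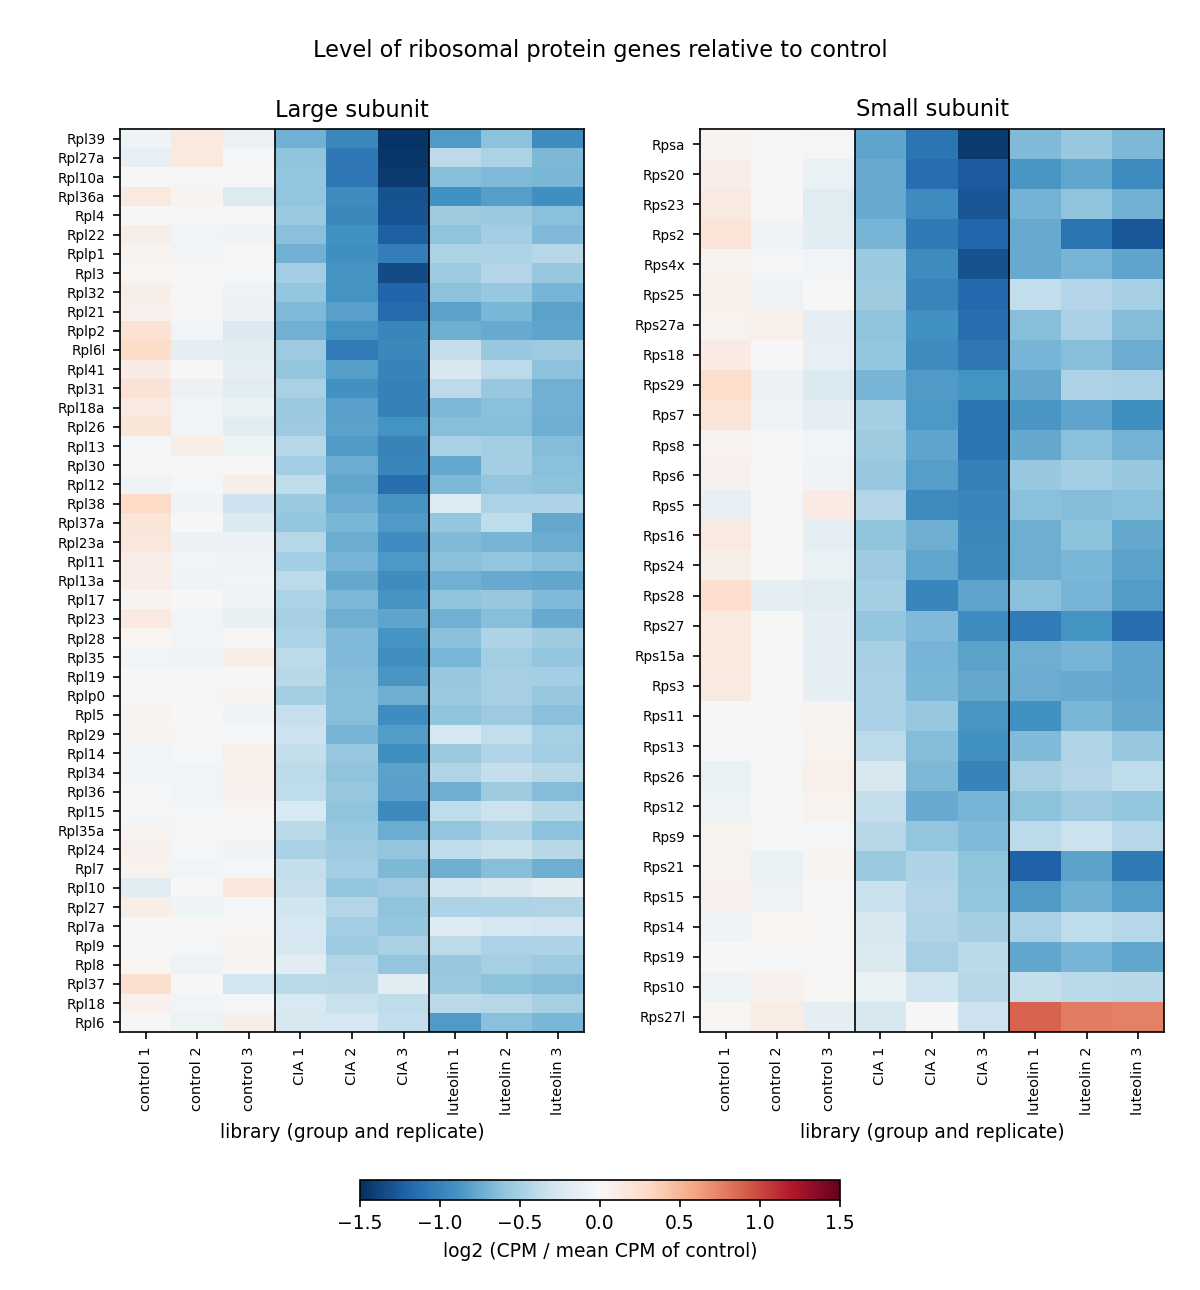
Level of ribosomal protein genes of at least 2 CPM in each library, as log2 of its CPM over its mean in control, for the large subunit (left) and the small subunit (right), ordered from the largest fall in CIA at the top. Blue is below control and red above. CIA replicate 3 is the darkest column, the luteolin columns are even, and Rps27l in the bottom row of the small subunit is the only one above control with luteolin.

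Luteolin against CIA asks whether treatment shifts these genes from their level in disease. Most members did not pass the test: 67 of 80. In the large subunit, 3 genes rose (Rplp1, Rpl27a and Rpl41) and 2 fell (Rpl6 and Rpl3l), and in the small subunit 3 rose (Rps27l, Rpsa and Rps25) and 5 fell (among them Rps21, Rps19, Rps15 and Rps27). These 6 rises and 7 falls of 80 compare with 23.1% of all tested genes that rose and 24.2% that fell. The median log2 fold change was 0.10 for the large subunit and 0.07 for the small subunit, against -0.04 over all tested genes. With upper-quartile scaling 4 members rose and 9 fell, and with median-ratio scaling 9 rose and 7 fell. Of all 19348 tested genes, 9361 and 9102 were called in either direction under these scalings, with medians of -0.10 and -0.03.

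The groups were apart for 8 of 80 members with luteolin above CIA and 8 of 80 with luteolin below CIA. Both counts are below the shares of all tested genes, 28% and 27.7%. For 38 of the 78 members of at least 2 CPM, all 3 luteolin libraries lay within the range of the CIA libraries. The luteolin mean lay between those of CIA and control for 54, below that of CIA for 23, and above that of control for 1. Such positions were not counted over all tested genes, so they are not read as particular to this family. The counts of genes that rose and fell lean on single CIA libraries. Without CIA replicate 1, 36 of 80 members rose (23 large, 13 small) and 6 fell, with subunit medians of 0.23 and 0.19. Without CIA replicate 3, 4 rose and 11 fell, and the small subunit median turned to -0.04. Of all tested genes, 9884 of 19981 were called in either direction without CIA replicate 1, and 9653 of 19828 without CIA replicate 3. Their rises and falls were not counted apart in these fits.

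Among the genes that rose with luteolin, Rplp1 (chromosome 9, 61820566 to 61821824, minus strand), with the levels given above, lay above every CIA library and below every control library (log2 fold change 0.43 ± 0.09, adjusted p = 0.00199). Rpsa was also between the groups, at 585, 626 and 581 CPM with luteolin against 536, 432 and 344 in CIA (log2 fold change 0.45 ± 0.13, adjusted p = 0.0151). Rps25, a small subunit protein needed for initiation at internal entry sites, was at 132, 118 and 124 CPM in control, 86.4, 62.6 and 55.6 in CIA and 96.7, 91.8 and 88.6 with luteolin (log2 fold change 0.44 ± 0.14, adjusted p = 0.0244), and its 3 groups did not overlap. The calls of Rpl27a (log2 fold change 0.49 ± 0.18, adjusted p = 0.0422) and Rpl41 (log2 fold change 0.39 ± 0.13, adjusted p = 0.029) came with luteolin libraries that overlapped those of CIA.

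Several of these calls did not outlast the loss of 1 library. Rplp1, Rpsa, Rps27l, Rpl6, Rps21, Rps19 and Rps15 passed in all 20 alternatives. Rps25 did not pass without CIA replicate 2 (adjusted p = 0.0882) or luteolin replicate 1 (0.0771), nor Rpl41 without CIA replicates 2 (0.0818) or 3 (0.0533) or luteolin replicates 1 (0.119) or 2 (0.0542). Rpl27a passed only without CIA replicate 1 or luteolin replicate 3, and otherwise had an adjusted p of 0.0542 to 0.125 with a library left out. Rpl3l missed the threshold without luteolin replicate 2 (0.0718). Rps27 passed with CIA replicate 3 left out and with no other library left out (0.0501 to 0.18). Its call was also lost with DESeq2 (0.0705), total counts without TMM (0.0963), no filter (0.0666), the stricter filter (0.0511) and only the 6 libraries compared (0.0982). With only those 6 libraries Rpl27a missed the threshold too (0.0682), and with upper-quartile scaling Rpl27a (0.0708) and Rpl41 (0.057) did.

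A small group fell below the CIA level with luteolin. Rpl6 (chromosome 5, 121342544 to 121347304, plus strand) was at 2064, 1959 and 2196 CPM in control, 1752, 1734 and 1606 in CIA and 1152, 1337 and 1284 with luteolin (log2 fold change -0.43 ± 0.08, adjusted p = 0.000994), so that it was little below control in CIA and lowest with luteolin, with the 3 groups apart. Rps21 (chromosome 2, 179899170 to 179900238, plus strand) was at 119, 107 and 117 CPM in control, 77.4, 82.96 and 75.3 in CIA and 49.4, 65.7 and 54.7 with luteolin (log2 fold change -0.47 ± 0.11, adjusted p = 0.00409). Rps19 fell further, from 165, 136 and 145 to 113, 119 and 112 CPM (log2 fold change -0.38 ± 0.08, adjusted p = 0.00324). Rps15, which reaches the decoding site from the head, fell from 203, 189 and 169 to 142, 153 and 144 CPM (log2 fold change -0.35 ± 0.08, adjusted p = 0.00536). For these 4 genes, each luteolin library lay below each CIA library.

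Members that were not called included Rpl37 (-0.29 ± 0.13), Rpl7 (-0.19 ± 0.08) and Rpl8 (-0.16 ± 0.10) on the lower side and Rpl3 (0.36 ± 0.16) and Rps23 (0.30 ± 0.13) on the upper side, as log2 fold changes. Rpl37 passed without control replicate 3 (adjusted p = 0.0418), Rpl7 and Rpl8 without CIA replicate 3 (0.00467 and 0.0221), and Rpl3 and Rps23 without CIA replicate 1 (0.00142 and 0.00826). Dividing-cell markers rose with luteolin in 8 of 8 and macrophage markers in 10 of 10, and mast cell and basophil markers in 8 of 8, while neutrophil markers rose in 3 of 10 and fell in 7. Plasma cell markers rose in 3 of 6 and fell in 1. Erythroid markers fell in 5 of 6 tested, T cell markers in 3 of 10 and B cell markers in 2 of 8. Of all tested genes, 23.1% rose and 24.2% fell, and the T cell and B cell counts are near the latter share. The part of the marker genes in the ribosomal protein values was not tested.

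Luteolin against control gives the distance that remained, and shares its groups with the comparisons above. In it, 74 of 80 members were lower than control (44 of 48 large, 30 of 32 small), where 20.8% of all tested genes were lower. Rps27l alone was higher, where 24.2% of all tested genes were higher. The median log2 fold change was -0.56 for the large and -0.70 for the small subunit, against -0.01 over all tested genes. All luteolin libraries lay below all control libraries for 76 of 80 members, against 30.9% of all tested genes. Of the members, 73 were lower than control both in CIA and with luteolin. Both comparisons use the same control libraries, and the share of all tested genes lower in both was not counted.

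The lowest members against control were Rps2 (-1.03 ± 0.16), Rps27 (-1.02 ± 0.12), Rps21 (-1.02 ± 0.11) and Rps20 (-0.86 ± 0.12) in the small subunit and Rpl36a (-0.88 ± 0.16), Rpl39 (-0.79 ± 0.17), Rpl21 (-0.76 ± 0.11) and Rplp2 (-0.76 ± 0.11) in the large subunit. All 8 passed the test in every alternative. Rpl10 (log2 fold change -0.24 ± 0.10, adjusted p = 0.0711), Rpl15 (log2 fold change -0.37 ± 0.14, adjusted p = 0.0567), Rpl38 (log2 fold change -0.37 ± 0.16, adjusted p = 0.0727), Rpl3l (log2 fold change 0.31 ± 0.39, adjusted p = 0.549) and Rps4l (log2 fold change 0.11 ± 0.37, adjusted p = 0.836) were not called. Of these, Rpl10 passed without control replicate 1 (adjusted p = 0.0373) or CIA replicates 1 (0.0371) or 3 (0.0402), and Rpl38 without control replicate 3 (0.0231) or CIA replicate 3 (0.0342). Among the named members called lower, Rpl3, Rpl27a, Rpl41, Rps25, Rps26 and Rps29 each lost the call in some alternatives. Without luteolin replicate 3, for example, the adjusted p was 0.0765 for Rpl3, 0.137 for Rpl27a and 0.081 for Rps26. Markers higher than control with luteolin were 10 of 10 of neutrophils, 8 of 8 of mast cells and basophils and 5 of 6 of megakaryocytes and platelets. So were 9 of 10 of T cells, 7 of 10 of macrophages and 7 of 8 of dividing cells, where 24.2% of all tested genes were higher. Lower were 8 of 8 of B cells, 2 of 2 of CD8 T cells and 4 of 6 tested of erythroid cells, where 20.8% of all tested genes were lower. Plasma cell markers were higher in 3 of 6 and lower in 1. The part of these markers in the ribosomal protein values was not tested.

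Rps27l stood apart from the family. It encodes a paralog of Rps27, and its gene (chromosome 9, 66853368 to 66856798, plus strand) is a known target of p53, whereas Rps27 lies on chromosome 3, 90119829 to 90120958, minus strand. Rps27l was at 6.85, 7.27 and 6.08 CPM in control, 5.7, 6.73 and 5.43 in CIA and 12.5, 11.6 and 11.4 with luteolin. Control and CIA libraries overlapped (log2 fold change -0.18 ± 0.13, adjusted p = 0.261), and every luteolin library was above all 6 others (luteolin against CIA: log2 fold change 0.99 ± 0.13, adjusted p = 0.000128; luteolin against control: log2 fold change 0.81 ± 0.12, adjusted p = 0.000494). Rps27 itself was at 88.1, 79.6 and 72.03 CPM in control, 53.5, 50.4 and 41.9 in CIA and 38.5, 42.99 and 36.5 with luteolin, highest in control and lowest with luteolin, with CIA and luteolin libraries overlapping.

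The balance of the pair moved accordingly. Rps27l had 7.78%, 9.14% and 8.44% of the CPM of Rps27 in control, 10.7%, 13.4% and 12.9% in CIA and 32.4%, 26.9% and 31.2% with luteolin. Each of the 3 comparisons of this ratio had no overlap, at a 2-sided exact permutation p of 0.1, the smallest that 3 against 3 allows. Rps27rt, a further Rps27-like gene, kept between 6.79% and 10.02% of Rps27 in all libraries. It fell with Rps27 in CIA (log2 fold change -0.78 ± 0.17, adjusted p = 0.00397) and had a log2 fold change of -0.31 ± 0.18 between luteolin and CIA (adjusted p = 0.177, and 0.0191 without CIA replicate 3).

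**Figure D4:**
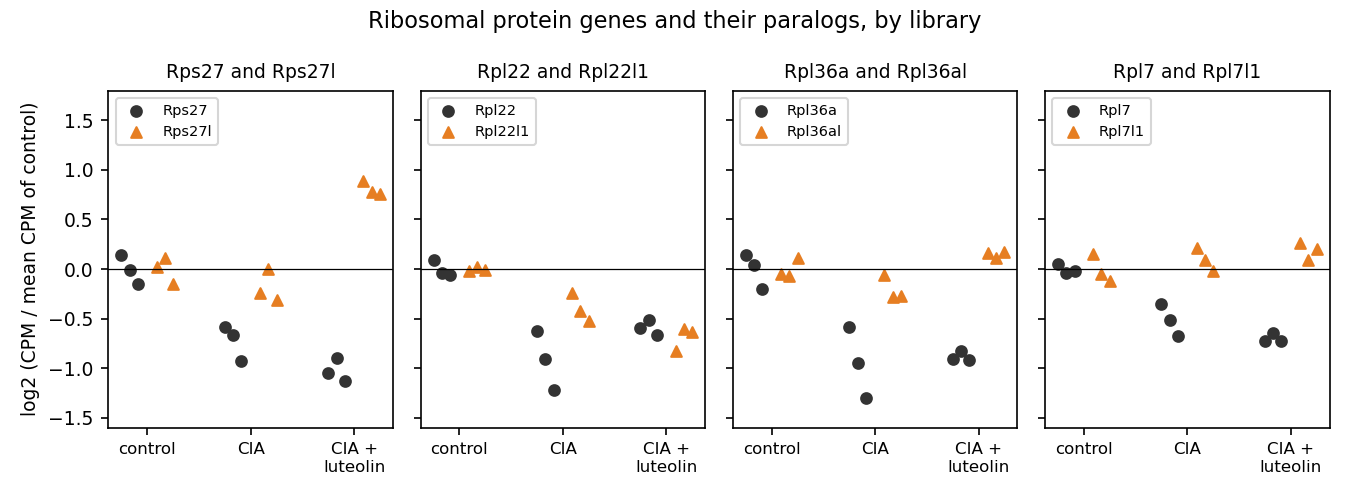
Levels of 4 ribosomal protein genes (circles) and their paralogs (triangles) in each library, as log2 of CPM over the gene's own mean in control. The circles fall in CIA and stay low with luteolin, the Rps27l triangles rise above control with luteolin, and those of Rpl36al and Rpl7l1 stay near 0.

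Other paralogs outside the family's naming also departed from their partners. Rpl36al, which encodes nearly the same protein as Rpl36a, was at 112, 109.9 and 124 CPM in control, 110.3, 94.95 and 95.3 in CIA and 129, 125 and 129.8 with luteolin. Its CIA value was not called against control (log2 fold change -0.20 ± 0.08, adjusted p = 0.0691; adjusted p = 0.00985 without CIA replicate 1), and it rose with luteolin over CIA (log2 fold change 0.35 ± 0.08, adjusted p = 0.00612). Rpl36al had 35.5%, 37.6% and 50.02% of the CPM of Rpl36a in control, 58.2%, 64.2% and 82.5% in CIA and 84.6%, 77.4% and 86.0% with luteolin. Rpl7l1 was at 163, 141 and 135 CPM in control, 169.8, 156 and 145 in CIA and 175, 156 and 169 with luteolin and was called in no comparison (CIA against control: log2 fold change 0.10 ± 0.09, adjusted p = 0.389), while Rpl7 fell in CIA (log2 fold change -0.51 ± 0.08, adjusted p = 0.000645). Rpl7l1 thus had 14.8% ± 1.04 of the CPM of Rpl7 in control, 22.6% ± 0.704 in CIA and 27.4% ± 2.46 with luteolin (SD, n = 3).

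Rpl22l1, the paralog that Rpl22 is known to repress, was at 9.004, 9.27 and 9.05 CPM in control, 7.73, 6.79 and 6.35 in CIA and 5.13, 5.99 and 5.88 with luteolin. It fell in CIA (log2 fold change -0.39 ± 0.12, adjusted p = 0.0212), a call that did not hold without control replicates 1 (0.0503) or 2 (0.0631) or CIA replicates 2 (0.0599) or 3 (0.0543). Rpl22l1 had 1.98% to 2.23% of the CPM of Rpl22 in control, 2.79% to 3.47% in CIA and 1.82% to 2.18% with luteolin. CIA against control and luteolin against CIA had no overlap in this ratio (2-sided exact permutation p = 0.1), and luteolin against control did (p = 0.4). Reads of near-identical copies can be divided between the genes of a pair, which these counts do not show.

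Nearly all members fell in CIA, so a split by tract at the start cannot show whether the tract matters, and it is given as a description. Members without a tract in the window may also start some bases away from the annotated start. Of the tested members in the promoter table, 27 of 28 with an oligopyrimidine start fell in CIA (median log2 fold change -0.66). Of those without one in the window, 28 of 30 fell (-0.68), where 24.5% of all tested genes fell. With luteolin against CIA the medians of these groups were 0.12 and 0.06. There 2 and 3 genes rose and 2 and 4 fell, where 23.1% of all tested genes rose and 24.2% fell. Among the windows printed above, Rpl27a, with the longest of the printed tracts, and Rpsa, with none in its window, were both among the members that fell most. Nothing is read from this pair about the tract.

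Genes of the same translation machinery were read from lists chosen by known function. Of 8 ribosome genes named outside the rule, 6 fell and 0 rose in CIA, where 24.5% and 26.6% of all tested genes did. Among those that fell were Rps3a1 (-0.59), Rack1, the signalling scaffold of the small subunit (-0.47), and Fau, which makes a ribosomal protein fused to a ubiquitin-like domain (-0.24). Rpl22l1 and Rps27rt, described above, are counted there again. With luteolin against CIA, 1 of the 8 rose and 2 fell (median -0.14), where 23.1% and 24.2% of all tested genes did. Of 18 other translation genes with known oligopyrimidine starts, 16 fell and 0 rose in CIA (median -0.53), where 24.5% and 26.6% of all tested genes did. Npm1, a nucleolar chaperone of assembly, was at 2091, 1916 and 1836 CPM in control, 1142, 851 and 726 in CIA and 1345, 1345 and 1284 with luteolin (log2 fold change -1.10 ± 0.14, adjusted p = 0.000134). Gas5, a noncoding RNA that hosts small nucleolar RNAs and is stabilised with this class of transcripts, fell from 195, 171 and 153 to 87.2, 69.97 and 72.9 CPM (log2 fold change -1.17 ± 0.11, adjusted p = 3.16e-05). The elongation factor Eef1a1 (-0.44 ± 0.08) fell too, while Eif4b (-0.01 ± 0.06) and Tpt1 (-0.02 ± 0.06) were not called.

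With luteolin against CIA, 5 of those 18 rose (23.1% of all tested genes), namely Npm1 (0.55 ± 0.14), Hnrnpa1 (0.57 ± 0.15), Gas5 (0.34 ± 0.11), Btf3 (0.20 ± 0.07) and Naca (0.20 ± 0.07), and Tpt1 fell (-0.34 ± 0.06). Against control, 15 of the 18 were lower with luteolin and 0 higher, where 20.8% and 24.2% of all tested genes were.

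The mitochondrial ribosome is a separate machine. The 78 tested genes of its proteins lie in the nucleus and are not known for the oligopyrimidine start, and 41 of them fell in CIA and 3 rose (median -0.36), where 24.5% and 26.6% of all tested genes did. With luteolin against CIA, 47 of 78 rose and 2 fell (median 0.39), where 23.1% and 24.2% of all tested genes did. Against control, 13 were higher and 1 lower (median 0.08), both below the 24.2% and 20.8% of all tested genes. Mrpl51 was at 16.4, 16.5 and 15.7 CPM in control, 13.3, 11.9 and 11.9 in CIA and 24.9, 24.4 and 23.8 with luteolin (luteolin against CIA: log2 fold change 0.98 ± 0.09, adjusted p = 1.48e-05), and Mrpl27 at 11.6, 10.5 and 7.82 CPM in control, 4.81, 4.68 and 3.84 in CIA and 10.6, 11.1 and 11.7 with luteolin (log2 fold change 1.33 ± 0.16, adjusted p = 8.60e-05). For both, luteolin libraries were above all CIA libraries. These 2 genes had the smallest p of that list in the comparison. The difference between the mitochondrial and the cytosolic genes was not tested.

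**Figure D5:**
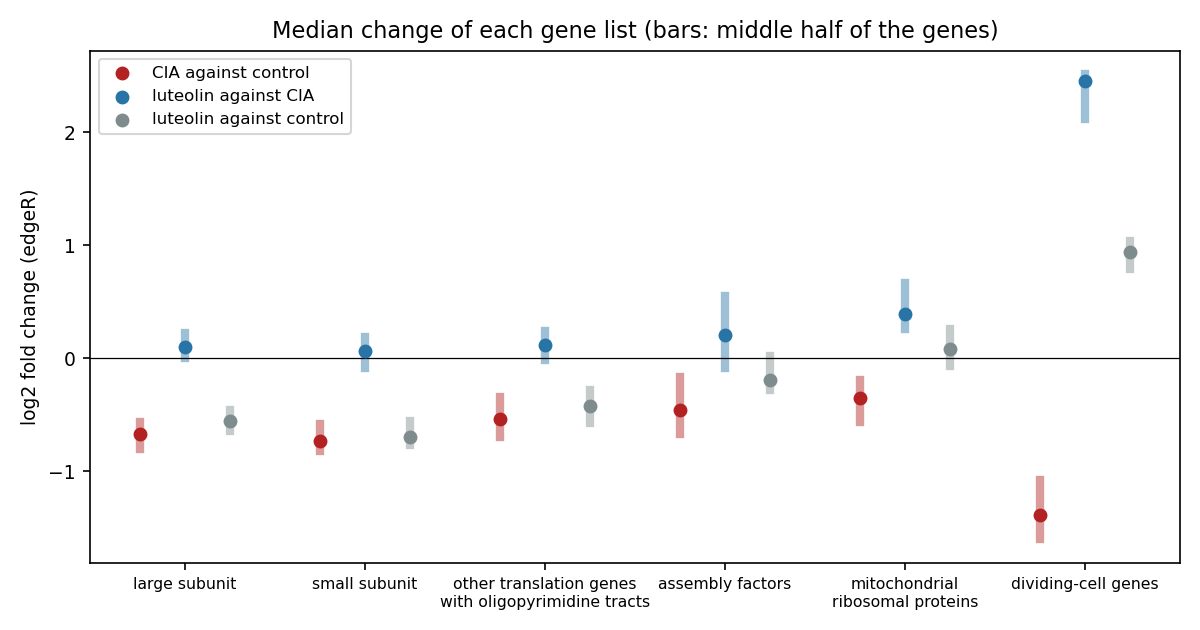
Median log2 fold change of 6 gene lists in CIA against control (red), luteolin against CIA (blue) and luteolin against control (grey), with bars over the middle 50% of genes in a list. Both cytosolic subunits and the other oligopyrimidine genes stay below 0 against control with luteolin, mitochondrial ribosomal proteins return to near 0, and dividing-cell genes, at 0.94, lie above it.

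A list of 11 genes held chaperones of ribosomal proteins and 5S particle factors, together with the p53 ligase Mdm2, which does not build the ribosome. In CIA 6 of the 11 fell and 1 rose (24.5% and 26.6% of all tested genes). With luteolin against CIA 4 rose and 1 fell (23.1% and 24.2%). The gene that rose in CIA and the gene that fell with luteolin were both Mdm2. Grwd1, the chaperone of Rpl3, was at 24.6, 24.3 and 27.8 CPM in control, 19.6, 13.9 and 11.98 in CIA and 22.997, 19.96 and 24.1 with luteolin (CIA against control -0.75 ± 0.16, luteolin against CIA 0.56 ± 0.16 on the log2 scale). Rrs1, which places the 5S particle, was at 80.5, 72.4 and 69.6 CPM in control, 54.96, 45.2 and 50.3 in CIA and 76.1, 72.03 and 73.9 with luteolin (-0.56 ± 0.09 and 0.56 ± 0.09). Bccip (-0.85 and 0.63) and Rpf2 (-0.68 and 0.55) followed the same course, and Tsr2, the chaperone of Rps26, fell in CIA (-0.67). Mdm2 went the other way, at 233, 241 and 287 CPM in control, 451, 564 and 1231 in CIA and 297, 255 and 311 with luteolin (log2 fold change 1.56 ± 0.30, adjusted p = 0.0017 in CIA; log2 fold change -1.38 ± 0.30, adjusted p = 0.00347 with luteolin against CIA). CIA replicate 3 was the highest of all libraries for Mdm2.

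Of 17 genes of the mTOR and Larp1 pathway, 3 rose and 6 fell in CIA (26.6% and 24.5% of all tested genes), and 2 rose and 4 fell with luteolin against CIA (23.1% and 24.2%). These counts are near those shares, and nothing is read from them for the list. Larp1, which binds oligopyrimidine starts, was at 235, 229 and 210.3 CPM in control, 165, 142 and 145 in CIA and 262, 253 and 253 with luteolin (CIA against control: log2 fold change -0.58 ± 0.08, adjusted p = 0.000244; luteolin against CIA: log2 fold change 0.76 ± 0.08, adjusted p = 3.34e-05). Its CIA libraries were lowest and its luteolin libraries highest. Rptor, the mTOR partner that recruits substrates, had log2 fold changes of -0.63 ± 0.14 and 0.62 ± 0.14 in the same comparisons. Eif4ebp1, the translation repressor that mTOR inactivates, was at 55.3, 65.7 and 69.5 CPM in control, 113, 132 and 175 in CIA and 84.2, 80.9 and 89.8 with luteolin (log2 fold change 1.14 ± 0.15, adjusted p = 0.000175 in CIA; log2 fold change -0.72 ± 0.15, adjusted p = 0.00245 with luteolin against CIA). Mlst8 (0.59 and -0.60) and Maf1, a repressor of RNA polymerase III (0.32 and -0.41), rose in CIA and fell with luteolin. Mtor itself was called in no comparison (CIA against control log2 fold change -0.23 ± 0.09, adjusted p = 0.0567). These are mRNA levels and say nothing of the kinase's activity.

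Copies and neighbours of these genes bear on their counts. The table lists 322 rows named as processed pseudogenes of ribosomal proteins, 320 of them with a parent among the members. They held 0.0358% to 0.0831% of a library's counts, 2.04% to 2.74% of those on the members, and none held more than its parent. Of the 92 tested, 37 fell and 2 rose in CIA (24.5% and 26.6% of all tested genes). With luteolin against CIA 12 rose and 3 fell, both below the 23.1% and 24.2% of all tested genes. Adding them to their parents left 76 members lower in CIA. Exonic bases were shared with another gene in 37 of 83 members, over 25% of the length in 7: Rpl35 (66.2%), Rpl23a (62.3%), Rpl24 (47.0%), Rpl13a (35.4%), Rps10 (28.7%), Rpl5 (26.7%) and Rpl31 (25.3%).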

How the data were processed

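The authors deposited unnormalized counts for each gene, from featureCounts (Subread 1.5.1) per the labels' protocols. The submitters' processing notes name Trimmomatic 0.36 for trimming. They give mm39, while the protocol names another reference, CHOK1GS, and a mapper written as STRA 2.5.3a. Kits were stranded, per the labels' protocols, but the counting's strand setting is not given in the sources used here. Of values from 1 to 10, 73.4% were even, as when the 2 mates of a fragment each add a count.

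Counts were tested with edgeR 4.0.16 (R 4.3.3): TMM, filterByExpr, a quasi-likelihood fit of all 9 libraries with a term per group, and Benjamini-Hochberg adjustment over 19348 genes at 0.05. Standard errors are the log2 fold change over the square root of F. CPM are TMM-scaled. DESeq2 1.42.0, other scalings and filters, a replicate block and leaving out each library were alternatives. The procedure was tested on simulated data.

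Members and lists were chosen with earlier results of these data known. Members named are those with the 4 largest changes per direction, subunit and comparison at 2 CPM or more, those of known role and paralogs, with up to 4 genes of smallest p per other list and comparison. The members at the small end of CIA against control (Rps10, Rpl6, Rpl18 and Rpl8), the uncalled Rpl15, and Btf3, Naca, Eef1a1, Eif4b, Tpt1, Tsr2 and Mtor as examples were picked after their values were seen. Replicates differed by more than counting noise (chi-square per degree of freedom of at least 5.51 for each pair), which repeat libraries of 1 sample would also do. Some genes that enter the counts are not reported here by name.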

Additional observations from a re-analysis of the deposited data

How the results depend on the processing

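The fall in CIA and the low level with luteolin against control kept their direction under all 20 alternatives: 75 to 78 members lower in CIA and 65 to 77 lower with luteolin than in control, of 78 to 82 tested. The stricter filter left out Rpl3l, so 0 large subunit genes rose in CIA. Without 1 library, the small subunit median in CIA ranged from -0.841 to -0.653. Luteolin against CIA was the unsteady comparison. Its calls over all tested genes moved too, from 7289 of 19891 without luteolin replicate 1 to 9884 of 19981 without CIA replicate 1. Large subunit genes that rose there, 3 in the reported fit, numbered 1 with upper-quartile scaling, 10 with no filter, 5 with the stricter filter and 1 to 23 without 1 library. Large subunit genes that fell, 2 as reported, numbered 4 with upper-quartile scaling, 1 with the stricter filter and 1 to 4 without 1 library, and the median ranged from 0.0011 to 0.227. Small subunit genes that rose, 3 as reported, numbered 5 with median-ratio scaling, 6 with no filter and 2 to 13 without 1 library. Those that fell ranged from 3 to 7, and the median from -0.0409 (without CIA replicate 3) to 0.194 (without CIA replicate 1). The cause of these shifts was not tested beyond the libraries named. Without 1 library of a group of 3, the spread is taken from the others.

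Correlations of the deviations from group means were -0.05 to 0.26 between same-numbered libraries and -0.33 to 0.23 between differently numbered ones. Of the same-numbered pairs, only CIA replicate 1 with luteolin replicate 1 was negative, so an effect shared by replicate number remains possible. The labels do not say that the numbers pair samples, and the reported fit did not take them as pairs. With a replicate block, 76 members fell in CIA as without it, and with luteolin against CIA 8 large and 5 small subunit genes rose. Of 2694 values of the 45 named members and paralogs under alternatives, 64 gained and 72 lost a call and 16 uncalled values crossed 0, and no called direction reversed. Limits remain: 3 libraries a group of unstated origin, control libraries with little Cd4, marker genes of other cells that move with the groups, and levels that are shares of counted RNA rather than amounts per cell.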
